A study of Mus musculus with 2 samples.

Results

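Voltage-gated sodium channels carry the fast inward current that starts an action potential in nerve and skeletal muscle. Each channel has 1 large alpha subunit that forms the pore and smaller beta subunits, single-pass membrane proteins with an immunoglobulin-like domain, which tune gating and anchor the channel. In skin they are known from the muscle sheet under the dermis, from the endings of sensory nerves, whose cell bodies and most of whose transcripts lie in ganglia outside the skin, and from the glia that wrap those nerves. The genes described here are 8 of the 4183 rows of the authors' table, with symbols made of Scn, a number and the letter a or b, namely the alpha genes Scn2a, Scn3a, Scn4a, Scn7a and Scn11a and the beta genes Scn2b, Scn3b and Scn4b.

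The samples were dorsal skin of C57BL/6 mice aged 18 to 20 months, either given no treatment or irradiated with red light at 8 J/cm2 once a day for 28 days. Each group has 1 GEO sample and 1 mean per gene, made by the authors in FPKM, in which fragment numbers are corrected for the length of the transcript and the size of the library, so that levels of different genes can be compared. How many animals or libraries stand behind a mean is not stated in the labels or the table. No spread, test or read depth is therefore available for any value below, so differences between the means could not be compared with how much animals vary. Apart from a few rows whose means disagree with their place in it, none of them a sodium channel gene, the table holds genes that differed by about 2-fold or more. The 8 genes were thus chosen by their symbol and by the same 2 means that are described here, so their differences are a description. Nothing can be read from it about Scn1a, Scn8a, Scn9a and Scn10a, which are not listed. All counts, sums and shares below are over these 8 genes and do not stand for every sodium channel subunit.

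All 8 sodium channel genes had a lower mean after red light, against 61.3% of all listed rows. Their median difference was 4.61-fold (log2 ratio of red light to untreated −2.20), beside a median log2 ratio of −1.21 over all listed rows and −1.63 over the rows that were lower. Of the 8 genes, 5 were lower by at least 4-fold, as were 18.9% of all listed rows. The gene nearest to the limit of the table was Scn2b at 2.24-fold, followed by Scn3b at 3.02-fold, while the smallest difference among all lower rows was 2.001-fold. The label that the authors gave each of the 8 genes and its place in the table matched its means. Bulk skin was measured, so fewer cells of a type and less RNA per cell cannot be told apart.

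**Figure D1:**
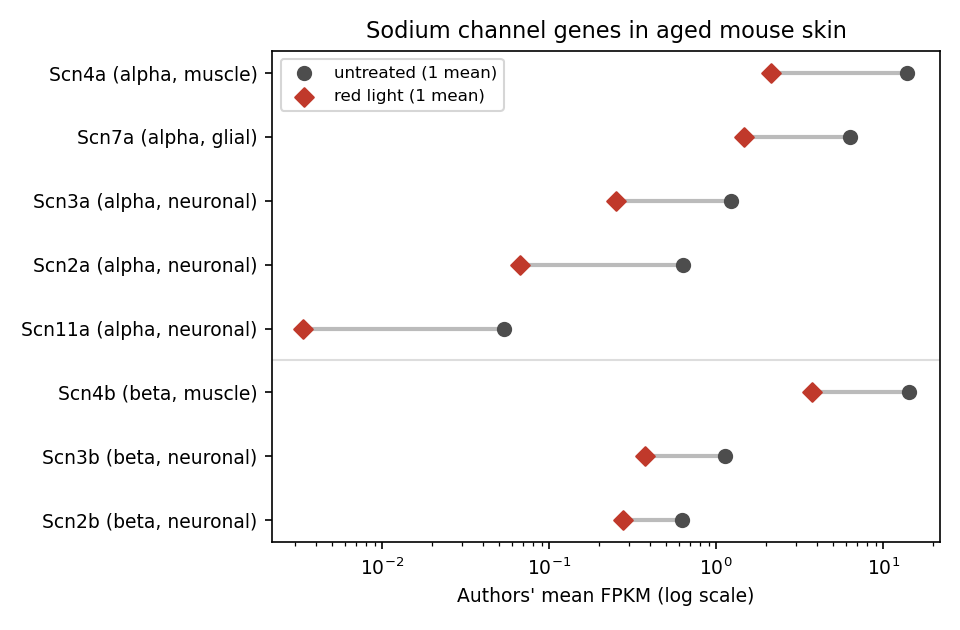
Authors' mean FPKM (log axis) of the 8 sodium channel genes in untreated skin (circles) and red light skin (diamonds), with 1 mean per group and no error available; alpha genes stand above the grey line and beta genes below it, with the tissue class of each in brackets. Every diamond lies to the left of its circle, from Scn4b at 14.4 and 3.74 FPKM to Scn11a at 0.0533 and 0.00333 FPKM.

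The levels spanned several orders of magnitude. In untreated skin the order from high to low was Scn4b, Scn4a, Scn7a, Scn3a, Scn3b, Scn2a, Scn2b and Scn11a. The first 3 kept their order after red light. Among the rest, Scn3b then stood above Scn3a, and Scn2b above both Scn3a and Scn2a. With no spread it cannot be said which neighbours in these orders differ; Scn4b and Scn4a in untreated skin, and Scn2a and Scn2b there, had nearly equal means.

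Scn4a encodes the pore of the skeletal muscle sodium channel, which carries the action potential along the muscle fibre. Untreated skin had a mean of 13.9 FPKM and red light skin 2.13 FPKM, 6.54-fold lower (log2 ratio −2.71). Only 5.55% of all listed rows were lower by more. It made up 62.8% of the summed FPKM of the 5 alpha genes in untreated skin and 54.4% after red light, and was the most abundant of them in both groups. Scn4b, a beta subunit found in skeletal muscle and in large sensory neurons that can bind the alpha subunit through a disulfide bond, had means of 14.4 and 3.74 FPKM and was 3.84-fold lower (log2 ratio −1.94). The 2 genes stood at nearly the same level in untreated skin, where the ratio of Scn4b to Scn4a was 1.03, but at a ratio of 1.76 after red light. A ratio of 2 genes within a group does not depend on how that group was scaled.

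The promoters of this pair are shown because both genes are classed here as muscle members of the family. The sequences are the 250 bases before a RefSeq transcript start (GRCm38.p6), which is not known to be the build used for the FPKM values. The Scn4a window is chr11:106349391-106349640 on the minus strand and the Scn4b window chr9:45138374-45138623 on the plus strand, both written 5′ to 3′ in the direction of the gene. Capitals would mark any of 6 motifs searched on both strands, and neither window holds one.
Scn4a upstream window: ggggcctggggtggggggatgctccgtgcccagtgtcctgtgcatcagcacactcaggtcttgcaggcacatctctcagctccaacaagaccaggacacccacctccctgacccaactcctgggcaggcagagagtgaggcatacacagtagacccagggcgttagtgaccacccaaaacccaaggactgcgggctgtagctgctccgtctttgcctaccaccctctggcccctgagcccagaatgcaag
Scn4b upstream window: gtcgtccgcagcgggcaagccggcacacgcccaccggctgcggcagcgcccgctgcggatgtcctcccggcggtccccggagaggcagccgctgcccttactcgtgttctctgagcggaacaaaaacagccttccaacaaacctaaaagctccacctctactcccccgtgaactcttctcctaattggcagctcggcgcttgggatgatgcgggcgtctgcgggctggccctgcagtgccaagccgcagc
Guanine and cytosine made up 61.6% of the Scn4a window and 66.0% of the Scn4b window, beside a median of 52.4% over 32851 promoter windows of the same length. Both values lie above the upper quartile of those windows, 61.2%. The motifs were CAGCTG (an E-box that myogenic factors bind), CATTCCT (the MCAT element of muscle genes), the MEF2 motif, ACAAAG (a core bound by SOX proteins), GGGCGG (a GC box) and TATAAA. They occurred in 13.0%, 4.51%, 2.92%, 16.5%, 32.7% and 12.4% of all windows, in that order. The absence of these letters from 250 bases says nothing about the factors.

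The skeletal muscle markers were lower in 26 of 26 listed cases (29 in the list), with a median of 6.09-fold and a range from 4.504-fold to 7.58-fold. They summed to 20856 FPKM without and 3541 FPKM with red light. Acta1, the actin of skeletal muscle, went from 4981 to 945 FPKM, Tnnt3, a fast troponin T, from 1995 to 336 FPKM and Atp2a1, the calcium pump of the fast fibre, from 2058 to 271 FPKM. The 6.54-fold difference of Scn4a lies inside the range of these markers, and that of Scn4b lies below it. The 4.92-fold difference of Scn3a, a gene classed as neuronal, lies inside it too. Relative to Ryr1, the calcium release channel of muscle, Scn4a stood at 0.253 in untreated and 0.249 in red light skin, while relative to Acta1 the level of Scn4a in red light skin was 0.806 times that in untreated skin. For Scn4b relative to Acta1 this factor was 1.37. Ryr1 was chosen after its values were seen. What part the amount of muscle in the samples had in the values of the sodium channel genes was not tested.

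Genes of the neuromuscular junction and of excitation, among which Scn4a acts between the acetylcholine receptor and the calcium channels of the T-tubule, were lower in 30 of 30 listed cases (34 in the list), by a median of 5.59-fold and from 2.70-fold to 8.95-fold. The 4 of highest level were Atp2a1, Casq1, a calcium store protein that went from 107 to 17.5 FPKM, Bin1, which shapes T-tubules and went from 69.8 to 20.5 FPKM, and Jsrp1, a triad protein that went from 72.4 to 13.1 FPKM. Of these 30 genes 4 are also among the muscle markers. The gene of all marker and context lists whose pair of means lay nearest to that of Scn4a was Ttn, the giant sarcomere protein titin, with 13.4 and 2.22 FPKM, at a distance of 0.0820 in log2 units over the 2 group means. This choice was made among 161 genes, and 2 means per gene are a thin measure of likeness.

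Scn7a encodes Nax, an alpha-like protein of Schwann cells and other glia that responds to the sodium concentration and does not act as a classical voltage-gated channel. Untreated skin had a mean of 6.31 FPKM and red light skin 1.46 FPKM, 4.31-fold lower (log2 ratio −2.11). It was the second most abundant of the listed alpha genes in both groups and held 28.5% of their summed level in untreated and 37.4% in red light skin. There were 0.454 Scn7a FPKM per Scn4a FPKM without light and 0.688 with it.

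The Scn7a promoter is shown because the gene is classed here as glial and the promoter holds a pair of the motifs. Its window is chr2:66784911-66785160 (RefSeq, GRCm38.p6) on the minus strand, written 5′ to 3′, with the motifs in capitals.
Scn7a upstream window: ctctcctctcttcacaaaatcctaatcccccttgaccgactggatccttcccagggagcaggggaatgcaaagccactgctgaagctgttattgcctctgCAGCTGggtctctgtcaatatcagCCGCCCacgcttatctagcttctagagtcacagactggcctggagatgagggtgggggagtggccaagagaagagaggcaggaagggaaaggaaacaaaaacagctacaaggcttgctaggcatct
The capitals are CAGCTG, starting 150 bases before the transcript start, and CCGCCC, the reverse complement of GGGCGG, starting 126 bases before it. Over the 6 members found in the promoter table CAGCTG was in the windows of Scn7a and Scn11a, and GGGCGG in that of Scn7a. CATTCCT and TATAAA were in 1 of the 2 windows of Scn2a, ACAAAG in both, and the MEF2 motif in none of the 7 windows. No motif searched was shared by more than 2 of the 6 genes. A match is a description of the letters and no evidence of binding.

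Schwann cell and myelin markers were lower in 19 of 19 listed cases (27 in the list), by a median of 5.29-fold and from 2.12-fold to 7.71-fold, and their summed level was 609.7 and 187 FPKM. Pmp22, a protein of compact myelin, went from 152 to 56.3 FPKM, Mbp, myelin basic protein, from 123 to 23.2 FPKM and Fa2h, which makes hydroxylated myelin lipids and which sebaceous glands also express, from 150 to 46.9 FPKM. The 4.31-fold difference of Scn7a lies inside the range of these markers. So do those of Scn4a, Scn4b, Scn3a, Scn3b and Scn2b, so this range does not single out Scn7a. Its level relative to Mbp after red light was 1.23 times that in untreated skin, and relative to Cdh19, a Schwann cell cadherin, 1.79 times. Cdh19 was chosen after its values were seen. The part of glial content in the value of Scn7a was not tested. Of the 161 genes, the one nearest to Scn7a was Chrnb1, a subunit of the muscle acetylcholine receptor, at 5.76 and 1.57 FPKM and a distance of 0.166.

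The alpha genes known mainly from neurons stood at low levels. Scn3a, the pore of a channel prominent in the developing nervous system, had means of 1.23 and 0.250 FPKM, 4.92-fold lower (log2 ratio −2.30). Scn2a, the pore of a main channel of brain axons, had means of 0.637 and 0.0667 FPKM, 9.55-fold lower (log2 ratio −3.26). Both were therefore at or below 0.250 FPKM after red light. Scn3a and Scn2a are close relatives that stand next to each other in the RefSeq gene order on chromosome 2, and how reads shared between such paralogs were assigned is not stated.

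Scn11a encodes the pore of a persistent, tetrodotoxin-resistant channel of pain-sensing neurons. Its means were 0.0533 FPKM and 0.00333 FPKM, 16.0-fold lower (log2 ratio −4). This was the largest ratio of the family and the smallest amount. The red light value is the smallest mean above 0 anywhere in the table, a value that 7 rows have in red light skin, so the fold rests on a mean at the lower end of what the table holds. With a pseudocount of 1 FPKM added to both means, its log2 ratio was −0.07. The ratio of Scn2a was −0.62 on that scale and that of Scn3a −0.84.

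Among the beta genes, Scn4b, described above with the muscle genes, had the highest level of the 8 genes in both groups. It held 37.5% of their summed FPKM in untreated skin and 45.04% after red light, while Scn4a held 36.4% and 25.6%. The sums were 38.2 and 8.303 FPKM. Of all listed rows 20.1% were lower by more than Scn4b. The nearest of the 161 genes was Prx, a myelin protein, at 13.9 and 4.10 FPKM and a distance of 0.139. This is a likeness of 2 means only, and the cell source of Scn4b was not tested.

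Scn3b, a beta subunit expressed in neurons that binds the alpha subunit without a covalent bond, had means of 1.14 and 0.377 FPKM, 3.02-fold lower (log2 ratio −1.59). Scn2b, which like Scn4b can be linked to the alpha subunit by a disulfide bond, had means of 0.620 and 0.277 FPKM, 2.24-fold lower (log2 ratio −1.16), the smallest difference of the 8 genes. With a pseudocount of 1 the log2 ratios were −0.63 and −0.34.

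Scn2b lies directly beside Scn4b in the RefSeq order of protein-coding genes on chromosome 9, and its upstream window (chr9:45117626-45117875, GRCm38.p6, plus strand) is given for comparison with that of its neighbour; it holds none of the 6 motifs, so no letter is in capitals.
Scn2b upstream window: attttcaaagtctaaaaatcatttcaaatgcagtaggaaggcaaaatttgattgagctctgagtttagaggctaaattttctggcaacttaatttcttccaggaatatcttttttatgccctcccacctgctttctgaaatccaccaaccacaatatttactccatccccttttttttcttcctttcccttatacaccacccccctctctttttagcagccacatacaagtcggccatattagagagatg
Guanine and cytosine made up 38.4% of this window against 66.0% of the Scn4b window. The neighbours differed in level by far more than in ratio, with Scn4b at 14.4 FPKM and Scn2b at 0.620 FPKM in untreated skin. The outer flanking genes, Jaml before Scn2b and Tmprss4 after Scn4b, were in the table as well and were lower too, at 4.90 and 1.19 FPKM and at 32.0 and 9.48 FPKM. Of the alpha genes on chromosome 2, Scn3a, Scn2a and Scn7a were listed and Scn1a and Scn9a were not, and on chromosome 9 Scn11a was listed while the adjacent Scn10a was not.

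Compared by subunit, the ratios did not overlap. The 5 alpha genes were lower by 4.31-fold to 16.0-fold with a median of 6.54-fold, and the 3 beta genes by 2.24-fold to 3.84-fold with a median of 3.02-fold. The gap between the groups was small, from 4.31-fold for Scn7a to 3.84-fold for Scn4b. Among all listed rows 16.1% were lower by more than Scn7a and 20.1% by more than Scn4b. Of the 8 genes, 5 reached 1 FPKM in a group, where 61.4% of listed rows were lower; Scn3a and Scn3b did so only in untreated skin, which fixed their direction, so nothing is read from that limit. With a pseudocount of 0.1 the groups already overlapped, with medians of −2.04 for alpha and −1.38 for beta, and with a pseudocount of 1 they did so with medians of −0.84 and −0.63; the alpha genes with the largest ratios, Scn11a and Scn2a, have the lowest alpha levels. On that scale 3 of the 8 genes, Scn4a, Scn4b and Scn7a, were lower by at least 2-fold, against 36.2% of all listed rows. Summed over genes, which weights the abundant ones, alpha transcripts went from 22.1 to 3.91 FPKM (5.66-fold lower) and beta transcripts from 16.1 to 4.39 FPKM (3.67-fold lower). The ratio of these sums, beta to alpha, was 0.728 without and 1.12 with red light.

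**Figure D2:**
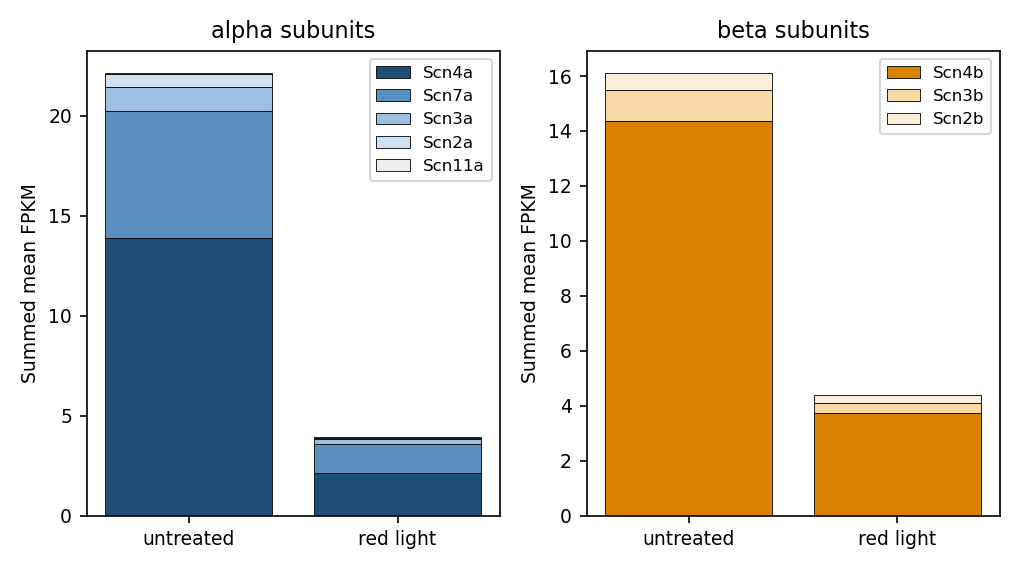
Summed mean FPKM of the described alpha genes (left, 5 genes) and beta genes (right, 3 genes) in each group, stacked by gene, with 1 mean per group, no error available and a separate axis for each panel. Alpha transcripts go from 22.1 to 3.91 FPKM, mostly Scn4a and Scn7a, and beta transcripts from 16.1 to 4.39 FPKM, mostly Scn4b.

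Compared by tissue class, Scn4a and Scn4b, classed as muscle genes, were lower by 6.54-fold and 3.84-fold. Scn7a, the only gene classed as glial, was lower by 4.31-fold. Scn4b is also found in large sensory neurons, so its class is not exclusive. The 5 genes classed as neuronal were lower by 2.24-fold to 16.0-fold with a median of 4.92-fold. The range of the neuronal class holds the values of the others, so the classes were not set apart by these ratios. The part of that range above 4.92-fold rests on Scn2a and Scn11a, both under 1 FPKM in both groups. Scn3a, Scn3b and Scn2b span 2.24-fold to 4.92-fold, which holds Scn7a and Scn4b but not Scn4a. The classes were set apart by level. All 5 neuronal genes stood at or below 1.23 FPKM in both groups, and the muscle and glial genes at or above 1.46 FPKM. Of the 31 markers of sensory and autonomic neurons 8 were listed. Of these 8, 6 were lower, beside 61.3% of all listed rows, with a median log2 ratio over the 8 of −1.85. Stmn2, a tubulin-binding protein of axons, went from 4.25 to 1.27 FPKM and Uchl1, a ubiquitin hydrolase of neurons, from 3.13 to 1.08 FPKM. The other 2 listed markers were higher, Tubb3, a tubulin, at 1.83 and 28.6 FPKM and Trpm8, the cold receptor, chosen after its values were seen, at 0.00333 and 0.0967 FPKM, and because of Tubb3 the summed level of the list was 14.5 and 32.1 FPKM. The nearest of the 161 genes to Scn3a was Avil, an actin-binding protein of sensory neurons, at 1.31 and 0.260 FPKM and a distance of 0.110. For Scn2a it was Asic2, an acid-sensing sodium channel, at a distance of 0.312, for Scn3b Foxd3 at 0.266, for Scn2b Sntg2 at 0.630 and for Scn11a Atp1b4 at 4.23, which is no likeness.

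**Figure D3:**
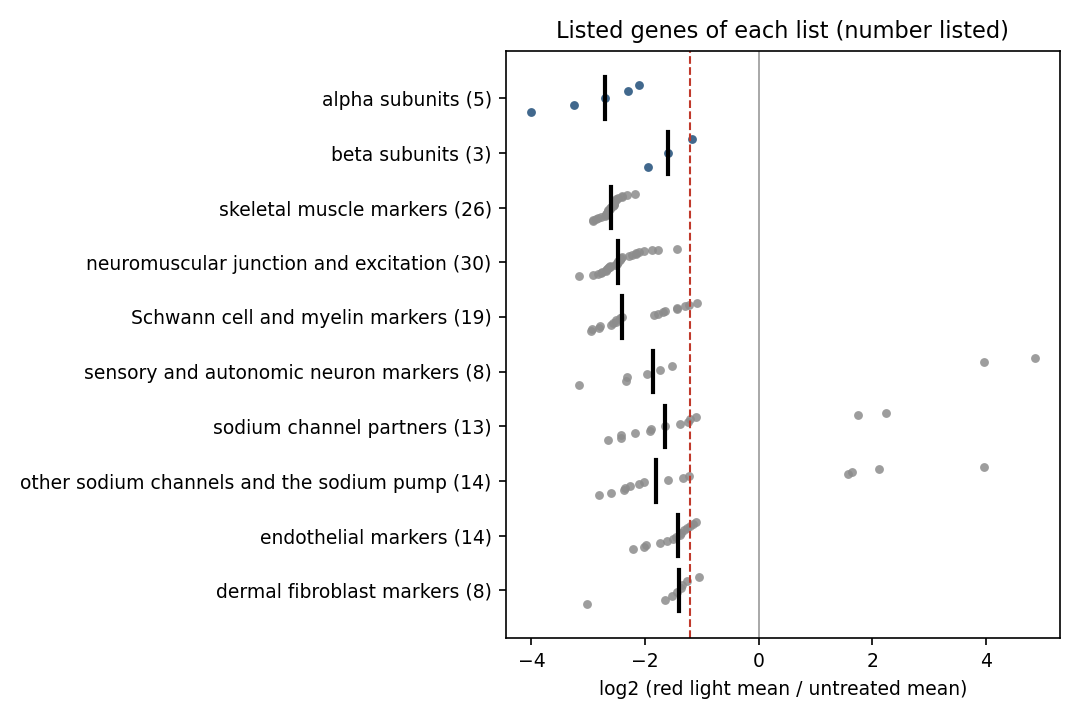
Log2 ratio of the red light to the untreated mean for the listed genes of the alpha and beta subunits (blue) and of 8 other lists (grey), with the number listed in brackets, a black bar at each median, a dashed line at the median of all listed rows (−1.21) and a solid line at 0. The alpha genes lie between −4 and −2.11 and the beta genes between −1.94 and −1.16.

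Markers of other skin cells differed in the same table. Endothelial markers were lower in 14 of 14 listed cases (median 2.69-fold, summed level 333 and 120 FPKM), including Pecam1, an adhesion protein, at 70.8 and 24.9 FPKM, Cldn5, a tight junction protein, at 40.3 and 8.73 FPKM and Egfl7 at 33.1 and 15.5 FPKM. Dermal fibroblast markers were lower in 8 of 8 (median 2.65-fold, summed level 1687 and 588 FPKM), including the matrix proteins Dcn at 864 and 275 FPKM and Dpt at 245 and 96.5 FPKM, and Clec3b at 232 and 81.05 FPKM. All 24 listed hair shaft or inner root sheath markers were higher, from a summed 84.6 to 24489 FPKM, with Krt71, Krt27 and Krt25 the most abundant and Crisp1, chosen after its values were seen, listed at 0 in untreated skin. All 8 listed melanocyte markers were higher too, led by Dct, Pmel and Tyrp1 and summing to 8.79 and 152 FPKM, and so were the 2 listed Merkel cell markers, Krt18 and Krt8. FPKM is a relative scale on which abundant hair transcripts lower all other values. Each group was also scaled to the listed genes outside 72 hair keratin and keratin-associated genes. This lifts every log2 ratio by 0.30, too little to turn the direction of any of the 8 sodium channel genes. Their log2 ratios then ran from −0.87 for Scn2b to −3.70 for Scn11a. On that scale the median of all listed rows was −0.92. The divisor holds only listed genes, which include the sodium channel genes and the muscle markers. It went from 126821 to 103218 FPKM, while the skeletal muscle markers within it went from 20856 to 3541 FPKM. The shift of 0.30 is therefore no measure of how far hair transcripts lowered the other values.

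Proteins that bind, anchor or modify sodium channels were listed in 13 of 43 cases. Of these 13, 11 were lower, beside 61.3% of all listed rows, with a median over the 13 of 3.13-fold lower. The 4 of highest level were Camk2d, Camk2b and Camk2a, subunits of a kinase that phosphorylates sodium channels (20.8 and 8.97 FPKM, 19.7 and 3.67 FPKM, and 19.5 and 3.63 FPKM), and Ank1, an ankyrin of muscle and red cells (22.1 and 3.50 FPKM). Nfasc went from 2.26 to 0.720 FPKM, Gldn from 2.32 to 1.08 FPKM and Fgf13, a channel-binding fibroblast growth factor homologue, from 7.93 to 3.34 FPKM. These 3 were chosen after their values were seen. The 2 higher partners, chosen in the same way, were Sptbn4, a spectrin of the axon initial segment, at 0.0633 and 0.300 FPKM, and Cntn2, an axonal adhesion protein, at 0.200 and 0.673 FPKM.

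Other sodium transport genes went both ways, with 10 of 14 listed genes lower (29 in the list), beside 61.3% of all listed rows. The median over the 14 was 3.52-fold lower. The 4 of highest level were small regulators of the sodium pump, Fxyd1 (139.8 and 46.0 FPKM), Fxyd5 (92.5 and 36.6 FPKM) and Fxyd6 (71.5 and 16.6 FPKM), which were lower, and Fxyd4 (1.06 and 16.5 FPKM), which was higher. Nalcn, the sodium leak channel that is a distant relative of the alpha subunits, went from 0.323 to 0.0633 FPKM. The 4 higher genes, Fxyd4 among them, included both listed subunits of the epithelial sodium channel, which belongs to another protein family and is not voltage-gated. Scnn1b was 3.12-fold higher, at 1.70 and 5.30 FPKM, and Scnn1g 2.97-fold higher, at 0.930 and 2.76 FPKM. The remaining one was Slc8a2, a sodium-calcium exchanger, at 0.160 and 0.693 FPKM. Nalcn, Scnn1b, Scnn1g and Slc8a2 were chosen after their values were seen.

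**Figure D4:**
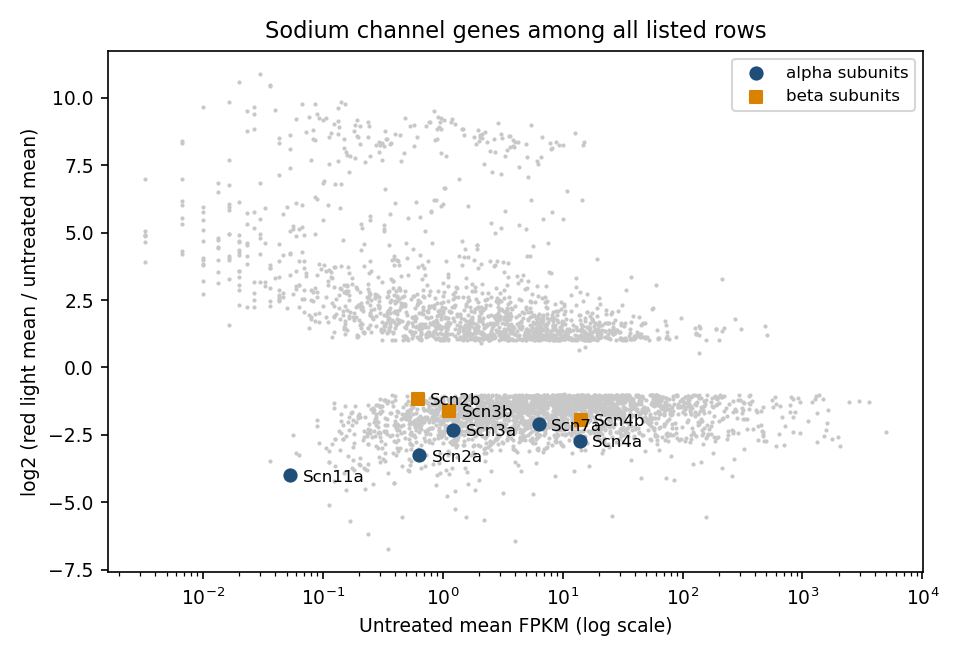
Log2 ratio of the red light to the untreated mean against the untreated mean FPKM (log axis) for all listed rows above 0 in both groups (grey; 69 rows at 0 in a group are left out), with the alpha genes as blue circles and the beta genes as orange squares. The nearly empty band around 0 is where genes differed by less than about 2-fold, with only a few rows that are out of order in the table; Scn4b and Scn4a lie furthest right of the 8 genes and Scn11a lowest and furthest left.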

How the data were processed

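RNA from dorsal skin was sequenced after selection of polyadenylated RNA, per the labels' protocols. The authors deposited 1 table with a mean FPKM per group and a direction label, per the file headers. Tools named in the submitters' processing notes, with no role given, are RSEM, DESeq2 1.40.2, Bowtie2 2.2.8 and R 4.3.1. Build, strand setting, number of libraries and listing criterion are not given in the sources used here, and depth is unknown. Ratios are red light over untreated means without a pseudocount, and no test was run because each group has 1 mean. A value counted as moved when it changed by over 1.5-fold. Some items, in the family and in the lists, are not reported here. Members and lists were chosen with earlier results of these data known. Named from each list were the 4 genes (channel, junction and transport lists) or 3 genes (cell markers) of highest mean level, plus the nearest gene per member by Euclidean distance of log2 means; exceptions are stated. Of the 8 genes, 6 matched RefSeq promoters (GRCm38.p6) and Scn3a and Scn3b did not. The ratio and row order checks were tested on simulated data. Python 3.11.15, numpy 2.4.6, pandas 2.3.3 and matplotlib 3.10.9 were used.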

Additional observations from a re-analysis of the deposited data

How the results depend on the processing

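The count of 8 lower genes stayed at 8 when scaled outside the hair keratins. That scaling lifts every log2 ratio by 0.30, and the smallest difference was −1.16 for Scn2b. It could thus not turn a direction and is no check of the count. By the construction of the alternatives the count was 5 at a minimum of 1 FPKM and 5 at a log2 ratio of at least 2. It was 3 at a log2 ratio of at least 1 with a pseudocount of 1. Over the 8 genes the median of −2.20 (log2) was −0.73 with a pseudocount of 1 and lay between −1.91 and −2.11 under the other alternatives. The alpha minus beta difference of the median log2 ratios was −1.12, but −0.20 with a pseudocount of 1; it was −0.66 with a pseudocount of 0.1, and the ranges of the subunits overlapped with either pseudocount. At a minimum of 1 FPKM, Scn3a and Scn3b pass only through untreated skin, so that alternative is no check of direction, of the median or of the subunits. The ratios of 5 genes moved with a pseudocount of 1 and of 2 genes (Scn2a and Scn11a) with 0.1; a pseudocount cannot turn a direction. The alternatives for the difference between subunits were chosen after seeing the data. No paired analysis was possible because the table gives only 1 mean per gene and group, and no replicate could be left out. Depth is unknown, so the counting error of the 3 genes under 1 FPKM in both groups cannot be given.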
